A study of Schizosaccharomyces pombe with 4 samples.

Results

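The ends of the 3 chromosomes of the fission yeast Schizosaccharomyces pombe carry subtelomeric genes, and the association of the RNA helicase Upf1 with them was measured by chromatin immunoprecipitation on genomic tiling arrays (ChIP-chip). A listed gene was taken as subtelomeric when its systematic identifier began with one of the clone names SPAC212, SPAC977, SPAC186, SPAC750, SPAC869, SPBC1348, SPBPB10D8, SPBPB21E7, SPBPB2B2, SPCP20C8, SPCC1884 or SPCC569, of which the first letters give the chromosome. The choice used names and no measured value. It took 44 of the 4888 listed genes, with 12 at the left and 9 at the right end of chromosome I, 5 at each end of chromosome II, and 5 at the left and 8 at the right end of chromosome III. The RefSeq annotation of assembly ASM294v3 holds 120 genes with these identifiers, and 0 of its 13 SPBC1348 genes were among the listed ones. All 44 matched the annotation and lay within the outermost 12 listed genes of a chromosome end, so by position they fit the label.

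Upf1 carried an HA epitope tag at its own gene and was recovered with an antibody against the tag. The S-phase culture carried the temperature-sensitive cdc25-22 mutation, was arrested at 37 °C for 3.5 h and was fixed 60 min after release at 25 °C, while the asynchronous culture had no such treatment. The protocol text given for both cultures is the same, and the sources used here do not say in so many words which tagged strain gave the asynchronous array. Each culture is represented by 1 immunoprecipitation (IP) array, and both were divided by the mean of the same 2 input arrays, so there is no replicate error, no test between cultures and no p-value. By their labels neither input had a treatment, and no source used here ties one of them to the S-phase culture. A difference in Upf1 and a difference in the amount of DNA at a chromosome end therefore cannot be told apart, nor can the cell cycle stage, the heat arrest and the array.

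Upf1 is best known for nonsense-mediated decay, in which it acts on messenger RNAs that end translation too early. Subtelomeres lie next to the telomere repeats. In fission yeast they are packed in heterochromatin, are mostly transcribed little in growing cells, and share long blocks of nearly the same sequence between chromosomes. The outermost genes of chromosomes I and II encode RecQ-type helicases (tlh1 and tlh2), followed by families of transporters and metabolic enzymes. Chromosome III differs from these, since its ends carry the ribosomal DNA arrays and the genes described here lie inwards of them.

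The array reads DNA by short probes, and so the degree to which copies of a gene can be separated depends on their sequence. The following 75-base stretches of coding sequence were chosen to show this for copies at different ends. In 1 pair the copies matched closely in their Upf1 difference between cultures, and in 2 pairs they did not. The stretches are given 5′ to 3′ on the sense strand of each gene as RefSeq has it in ASM294v3. Capitals mark the positions at which the copies differ.
tlh1 (chromosome I, bases 266 to 340 of the gene): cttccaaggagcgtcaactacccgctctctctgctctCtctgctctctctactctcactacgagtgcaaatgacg
tlh2 (chromosome II, bases 266 to 340 of the gene): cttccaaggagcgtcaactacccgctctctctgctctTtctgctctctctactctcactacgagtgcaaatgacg
fex1 (chromosome I, bases 338 to 412 of the gene): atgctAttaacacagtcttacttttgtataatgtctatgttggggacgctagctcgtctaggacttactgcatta
fex2 (chromosome II, bases 336 to 410 of the gene): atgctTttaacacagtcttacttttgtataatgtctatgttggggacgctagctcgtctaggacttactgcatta
SPCP20C8.02c (left end of chromosome III, bases 92 to 166 of the gene): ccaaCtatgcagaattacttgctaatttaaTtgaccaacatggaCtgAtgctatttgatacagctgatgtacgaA
SPCC569.02c (right end of chromosome III, bases 92 to 166 of the gene): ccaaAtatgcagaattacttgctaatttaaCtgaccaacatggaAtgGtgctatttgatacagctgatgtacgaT
Of the 51 words of 25 bases in each stretch, 26 are the same in tlh1 and tlh2, 45 in fex1 and fex2, and 3 in SPCP20C8.02c and SPCC569.02c. The stretch of tlh1 and tlh2 was centred on their first difference. For the other pairs it was the coding stretch without gaps whose number of differences came nearest to the mean of the pair. For fex1 and fex2, which are 92.6% identical over the aligned bases, that stretch holds only 1 difference. It therefore shows them more alike than they are on average. Over the whole gene the order is another, with 99.6% of the words of tlh1 found in tlh2. The share is 74.8% for fex1 in fex2 and 35.3% for SPCC569.02c in SPCP20C8.02c. The probes assigned to each gene are not given in the sources used here, and neither is the genome build behind the gene signals. In the annotation 6 of the 44 genes overlap another protein-coding gene (dak2, SPAC977.17, SPBPB10D8.01, SPBPB10D8.02c, nic1 and SPCC569.05c) and 34 overlap a non-coding RNA gene, and the signal of overlapping genes cannot be told apart.

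The IP values of the cultures are on different scales. The median gene had an IP over input ratio of 0.195 in S phase and 0.774 in the asynchronous culture, which differ 3.97-fold. Unless called deposited ratios, Upf1 values are given from here on in log2, with the median gene of the same column set to 0, and differences are S phase minus asynchronous, centred likewise. A gene is called above or below, higher or lower, when it passes 1.5-fold. The standard deviation (SD) of the difference over all listed genes was 0.35.

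The subtelomeric genes had a median Upf1 value above that of the median gene in both cultures, although their median transcription was low. In S phase their median was 0.28 with a range from −1.77 to 1.53, and in the asynchronous culture it was 0.091 with a range from −1.23 to 0.97, where the median gene is at 0 by construction. In S phase 12 of the 44 genes lay above (27.3%, against 11.2% of all listed genes) and 2 below (4.55%, against 7.96%). In the asynchronous culture 5 lay above (11.4%, against 5.14%) and 5 below (11.4%, against 3.36%). Of the 12 above in S phase 9 were among the 13 genes of chromosome III and 3 among the other 31, and the 5 below in the asynchronous culture were all from chromosome III. The median was 0.70 in S phase and −0.041 in the asynchronous culture for the genes of chromosome III, and 0.020 and 0.20 for the other 31. The next 12 listed genes inwards at each end, 72 in all, had levels near those of the 44. Their medians were 0.25 in S phase and 0.070 in the asynchronous culture, and 15 and 9 of them lay above. On chromosome III the S-phase median of these next 12 was 0.49 at the left end and 0.54 at the right. That of the subtelomeric genes was 0.49 and 0.76. Of all 875 listed genes of chromosome III 137 lay above in S phase.

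Between the cultures the subtelomeric genes moved in both directions. A total of 10 were higher in S phase (22.7%, against 3.78% of all listed genes), and 7 were lower (15.9%, against 4.03%). Their median difference was 0.080, close to the median gene, and the SD of the difference across the 44 genes was 0.84. Of the 10 higher genes 8 lay on chromosome III, whereas all 7 lower genes lay on chromosome I. These counts were chosen with the earlier results of the series known and carry no test.

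**Figure D1:**
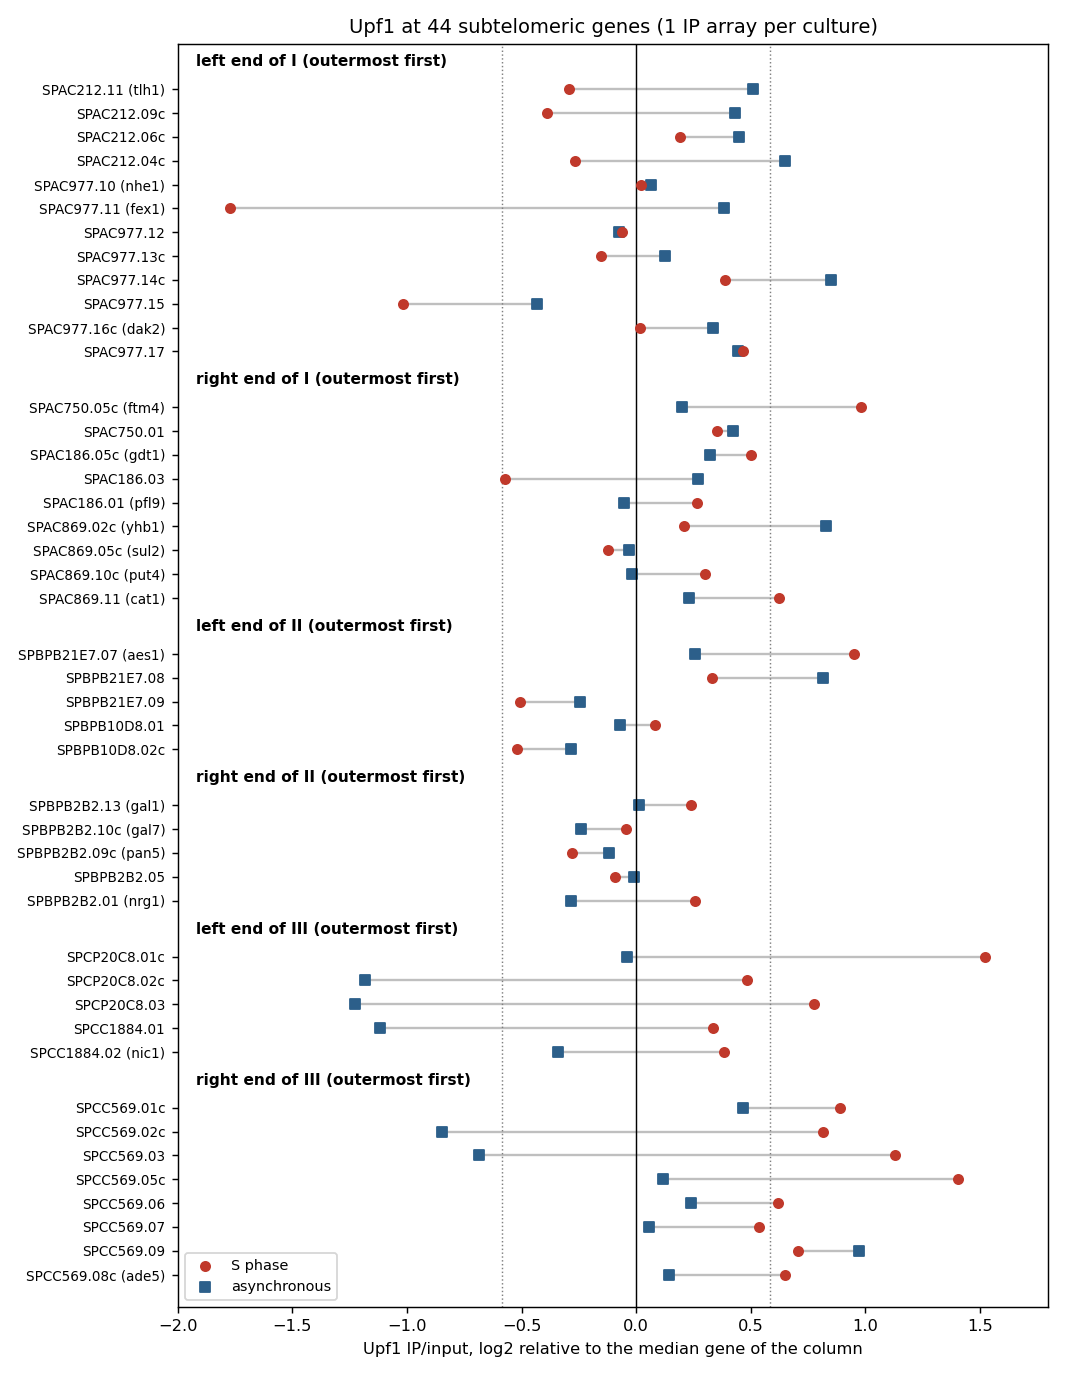
Upf1 IP over input of each of the 44 subtelomeric genes (log2 relative to the median gene of the column), in S phase (red circles) and in the asynchronous culture (blue squares), with the outermost gene of each end on top and 1 array per culture. Dotted lines mark 1.5-fold. At the left end of chromosome III all 5 genes are higher in S phase, and on the left of chromosome I the S-phase circles of 10 of 12 genes lie left of the squares.

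On the left of chromosome III all 5 genes were higher in S phase, by 0.72 to 2.00, with a median of 1.56. The outermost, SPCP20C8.01c, encodes an uncharacterised protein. Its deposited ratio was 0.561 in S phase and 0.753 in the asynchronous culture, which places it at 1.53 and −0.041 and makes it the gene of rank 21 of all listed genes in S phase. Next to it, SPCP20C8.02c encodes a protein of a family known only from S. pombe (UPF0321), with deposited ratios of 0.273 in S phase and 0.341 in the asynchronous culture and centred values of 0.49 and −1.18. The pseudogene SPCP20C8.03 had deposited ratios of 0.334 and 0.331 and centred values of 0.78 in S phase and −1.23 in the asynchronous culture, the lowest asynchronous value among the 44 genes. At these genes the deposited ratios of the cultures were thus alike or less than 1.5-fold apart, while those of the median gene were 3.97-fold apart.

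The gene SPCC1884.01, for a protein specific to Schizosaccharomyces pombe, stood at 0.34 in S phase and −1.12 in the asynchronous culture, a difference of 1.45. The innermost of the 5, nic1, encodes a nickel and cobalt transporter of the plasma membrane. Its values were 0.38 in S phase and −0.34 in the asynchronous culture. The size of the difference at this end therefore came largely from low asynchronous values at 3 of the genes and, for SPCP20C8.01c, from a high value in S phase.

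On the right of chromosome III the median difference was 0.49, and 3 of 8 genes were higher in S phase. Those were SPCC569.02c, the UPF0321 family copy (0.82 in S phase and −0.85 in the asynchronous culture), SPCC569.03, an uncharacterised protein (1.13 and −0.68), and SPCC569.05c, a transporter of the spermidine family (1.41 and 0.12). The outermost gene, SPCC569.01c, was above the median gene in both cultures, with 0.89 in S phase and 0.47 in the asynchronous culture. In S phase 7 of the 8 genes of this end lay above 1.5-fold, and the remaining one, the aromatic aminotransferase gene SPCC569.07, stood at 0.54 in S phase and at 0.056 in the asynchronous culture.

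Further inwards at the right end the differences were smaller. The uncharacterised SPCC569.06 had 0.62 in S phase and 0.24 in the asynchronous culture, and ade5, for an enzyme of purine synthesis, had 0.65 and 0.14. The only gene of the 44 that was above 1.5-fold in both cultures was the short uncharacterised SPCC569.09, at 0.70 in S phase and 0.97 in the asynchronous culture. Its asynchronous value was the highest of all 44, at rank 29 of all listed genes, and its difference was −0.28. Over the outermost 4 genes of both ends of chromosome III the median was 0.85 in S phase and −0.76 in the asynchronous culture.

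The left end of chromosome I showed the opposite direction. Its median difference was −0.40, 5 of 12 genes were lower in S phase and 0 were higher. The outermost gene tlh1 (SPAC212.11), which encodes a RecQ-type DNA helicase, had deposited ratios of 0.159 in S phase and 1.10 in the asynchronous culture, or −0.29 and 0.51. The malic enzyme pseudogene SPAC212.09c had −0.39 in S phase and 0.43 in the asynchronous culture. For SPAC212.04c, a member of the S. pombe DUF999 family, the values were −0.27 and 0.65. The helicase-like gene SPAC212.06c, which lies between these, differed less, at 0.19 in S phase and 0.45 in the asynchronous culture.

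The gene with the lowest difference among the 44 was fex1, which encodes a plasma membrane channel that exports fluoride. Its deposited ratio was 0.0570 in S phase and 1.01 in the asynchronous culture, or −1.77 and 0.39, and only 1 listed gene had a lower difference than its −2.17. It was not like its neighbours. The sodium/proton antiporter gene nhe1 on its outer side had 0.020 in S phase and 0.066 in the asynchronous culture, and the L-asparaginase gene SPAC977.12 on its inner side had −0.062 and −0.077.

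The inner part of this end was mixed. SPAC977.15, a dienelactone hydrolase family gene, was low in both cultures (−1.02 in S phase and −0.43 in the asynchronous culture) and its difference of −0.59 only just passed 1.5-fold. With the S-phase ratios scaled to the spread of the asynchronous ones, its difference was −0.30 and no longer passed, and neither did those of ftm4 and aes1, described next, at 0.50 and 0.41. The aldo-keto reductase gene SPAC977.14c, which had the highest RNA level of the 44 genes, had 0.39 in S phase and 0.85 in the asynchronous culture. For the pseudogene SPAC977.13c the values were −0.15 and 0.13, and for dak2, a dihydroxyacetone kinase, 0.018 and 0.34. The innermost gene SPAC977.17, of the MIP family of membrane channels, had 0.47 in S phase and 0.45 in the asynchronous culture.

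On the right of chromosome I the median difference was 0.17 and single genes moved either way. The outermost gene ftm4, for a protein with transmembrane helices, was higher in S phase, with 0.98 in S phase and 0.20 in the asynchronous culture. Lower in S phase were the L-asparaginase gene SPAC186.03 (−0.57 in S phase and 0.27 in the asynchronous culture) and yhb1, which encodes a nitric oxide dioxygenase (0.21 and 0.83). The aldo/keto reductase gene SPAC750.01 had 0.35 in S phase and 0.43 in the asynchronous culture, and gdt1 had 0.50 and 0.32. The remaining genes were pfl9, sul2, put4 and cat1, a cell surface glycoprotein gene and the genes of sulfate, proline and arginine/lysine transporters. Their differences lay between −0.10 and 0.38, and of these cat1 was the highest in S phase (0.62, against 0.23 in the asynchronous culture).

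At the ends of chromosome II 1 of 10 genes passed 1.5-fold between the cultures. The left end had a median difference of −0.24, and aes1, for a protein of the phenazine biosynthesis family, was the only gene of it past 1.5-fold between the cultures, with 0.95 in S phase and 0.26 in the asynchronous culture. The neighbouring pseudogene SPBPB21E7.08 was above in the asynchronous culture (0.33 in S phase and 0.82 in the asynchronous culture). The L-asparaginase gene SPBPB21E7.09 had −0.51 and −0.25. The cysteine transporter gene SPBPB10D8.01 stood at 0.084 in S phase and −0.069 in the asynchronous culture, and the arylsulfatase gene SPBPB10D8.02c, which overlaps it, at −0.52 and −0.28.

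On the right of chromosome II the median difference was 0.19 and 0 of 5 genes passed 1.5-fold in any of the comparisons. The galactokinase gene gal1 had 0.24 in S phase and 0.013 in the asynchronous culture, and gal7, for the next enzyme of galactose use, had −0.045 and −0.24. The values of pan5, for a reductase of pantothenate synthesis, were −0.28 and −0.12, and those of SPBPB2B2.05, a glutamine amidotransferase family gene, were −0.090 and −0.0095. The amino acid permease gene nrg1 had the largest difference of this end at 0.53, with 0.26 in S phase and −0.28 in the asynchronous culture.

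Grouped by what they encode, the genes higher in S phase were mainly uncharacterised. Of 10 genes for uncharacterised proteins 6 were higher and 1 was lower, and 8 of these 10 lay on chromosome III. Of 11 transporter genes 2 were higher (nic1 and SPCC569.05c) and 1 was lower (fex1). Of 16 genes for metabolic enzymes 1 was higher (aes1) and 3 were lower (SPAC977.15, SPAC186.03 and yhb1), with a median difference of −0.13. Of 4 pseudogenes 1 was higher and 1 lower, and of 2 helicase genes tlh1 was lower. The role and the chromosome end are bound together in these counts.

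How far inwards the differences reached was examined with the next 12 listed genes at each end, 72 in all. Their medians were 0.14 and −0.14 at the left and right end of chromosome I, 0.055 and 0.061 at those of chromosome II, and 0.32 and 0.10 at those of chromosome III. Of all 72, 6 were higher in S phase and 4 were lower, where 3.78% and 4.03% of all listed genes were. The right end of chromosome II had 2 higher and 1 lower, and its left end 1 higher and 0 lower. The left end of chromosome I had 1 higher and 1 lower, and its right end 0 higher and 1 lower. On the left of chromosome III 9 of these 12 genes were above 0, 2 were higher in S phase and 1 was lower. At the right end 8 of 12 were above 0 and 0 passed 1.5-fold, with a range from −0.28 to 0.37. Among the 26 outermost listed genes of each end of chromosome III, the differences above 1 lay in the outermost 4 subtelomeric genes at the left end and in SPCC569.02c, SPCC569.03 and SPCC569.05c at the right end. On chromosome II such differences lay in genes that are not subtelomeric by the rule. These were SPBC359.03c (1.08) at the left end, and SPBCPT2R1.04c (1.11) and the non-coding RNA gene nam3 (1.07) at the right end. Over all 875 listed genes of chromosome III the median difference was 0.055, against −0.021 and 0.0052 on chromosomes I and II.

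**Figure D2:**
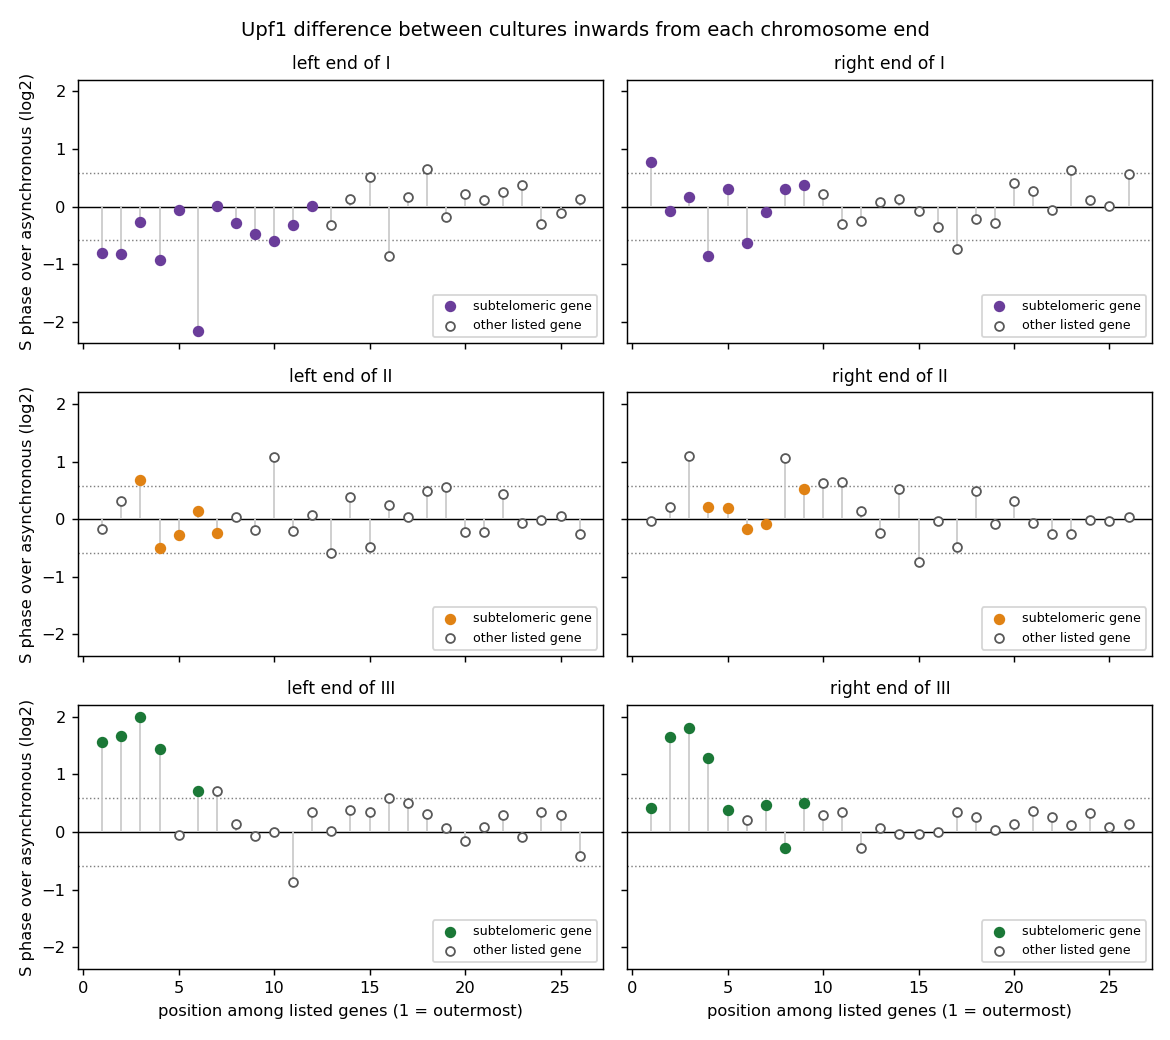
Difference between cultures (S phase over asynchronous, log2, centred on the median gene) for the 26 outermost listed genes of each chromosome end, ordered from the end inwards, with subtelomeric genes filled and other listed genes open. Dotted lines mark 1.5-fold. The outermost 4 lie between 1.45 and 2.00 on the left of chromosome III and between −0.92 and −0.27 on the left of chromosome I.

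Repeated sequence is frequent at these ends and was counted as the share of a gene's 25-base words that occur again anywhere in the genome. This share exceeded 5% in 17 of the 44 subtelomeric genes, and in 142 of all 4888 listed genes. Among those 17, 6 were higher in S phase and 5 were lower, and the SD of the difference was 1.21. Among the other 27, 4 were higher and 2 were lower, and the SD was 0.51. The 4 higher genes of mostly unique sequence were aes1, SPCC1884.01, nic1 and SPCC569.05c, with shares of 0% to 2.57%. The 2 lower ones were SPAC977.15 and yhb1, both with a share of 0%.

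Without repeated genes the contrast between the ends was smaller in part. On chromosome III the median difference was 1.08 over the 2 genes that remained at the left end and 0.47 over 5 genes at the right end. On the left of chromosome I it was −0.29 over 5 genes, against −0.81 over the 7 repeated ones. The outermost 4 genes of that end had shares from 64.6% to 99.6%, and the share of fex1 was 75.2%. The part that repeated sequence plays in the values of the repeated genes was not tested.

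**Figure D3:**
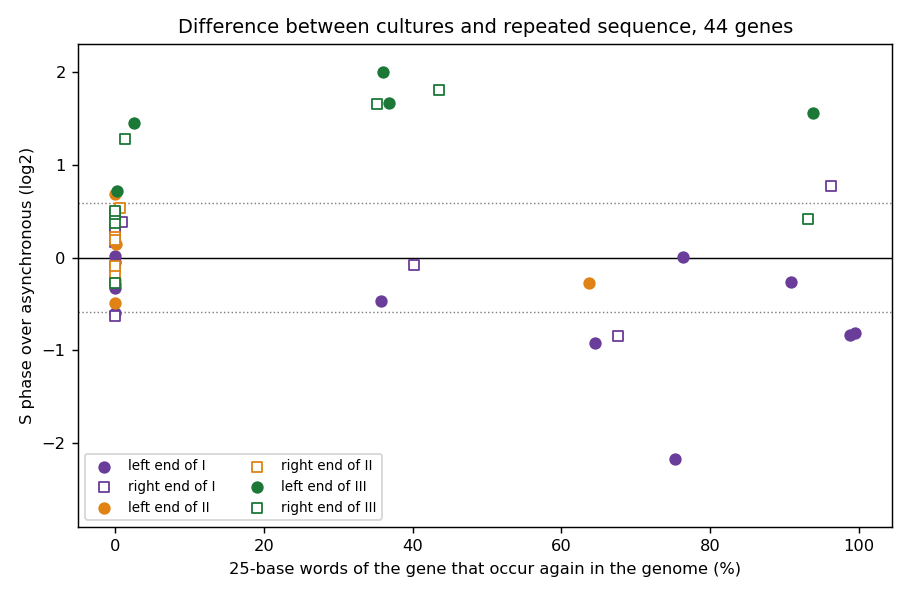
Difference between cultures (S phase over asynchronous, log2) of the 44 subtelomeric genes against the share of their 25-base words that occur again in the genome, with filled circles for left ends and open squares for right ends of each chromosome. SPCC1884.01 and SPCC569.05c lie at 1.45 and 1.28 with shares of 2.57% and 1.36%, and the genes of the left end of chromosome I with shares above 50% lie at or below 0.0071.

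Copies of a gene at different ends were then set side by side. There were 14 pairs of listed genes with at least 80% identity in which at least 1 was subtelomeric by the rule. The gap between the copies had a median of 0.68 in S phase, 0.41 in the asynchronous culture and 0.76 for the difference between cultures. In 5 pairs with at least 99% identity over the aligned part the gaps reached 1.16 in S phase and 0.51 in the asynchronous culture. That part covers only 52.5% of SPAC212.06c in its pairs with tlh1 and tlh2. It covers 61.2% of SPCC569.01c in its pair with SPCP20C8.01c, which gave the gap of 0.51. The pairs tlh1 and tlh2, and SPAC212.09c and SPBCPT2R1.07c, align over 100% of the first gene. Their gaps were 1.16 and 0.69 in S phase, and 0.78 and 1.05 for the difference between cultures. These copies of almost the same sequence therefore carried values as far apart as many of the differences given above. How much of these gaps is measurement error was not tested.

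The helicase genes tlh1 and tlh2 are 99.98% identical over 5662 aligned bases, and 99.6% of the words of tlh1 are found in tlh2. In S phase tlh1 stood at −0.29 and tlh2 at 0.87, and in the asynchronous culture they stood at 0.51 and 0.89. The malic enzyme pseudogenes SPAC212.09c and SPBCPT2R1.07c are 99.94% identical and had −0.39 and 0.30 in S phase and 0.43 and 0.078 in the asynchronous culture. Their ratios for Ser5-phosphorylated RNA polymerase II, described further on, were 3.09 and −1.81 and lay farther apart than their Upf1 ratios. The fluoride channel genes fex1 and fex2 are 92.6% identical. In S phase they stood at −1.77 and 0.26 and in the asynchronous culture at 0.39 and −0.067, so the low S-phase value of fex1 was not shared by its copy.

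Of the copies at the ends of chromosome III, 1 pair shared its difference between cultures and 1 did not. The UPF0321 genes SPCC569.02c and SPCP20C8.02c (93.6% identical) had differences between cultures of 1.66 each, with 0.82 and 0.49 in S phase and −0.85 and −1.18 in the asynchronous culture. The outermost genes of chromosome III, SPCC569.01c and SPCP20C8.01c, share 99.6% identity over 1126 bases. They had 0.89 and 1.53 in S phase and 0.47 and −0.041 in the asynchronous culture, and their differences between cultures were 0.41 and 1.56. A further copy of theirs, SPBC337.02c, lies away from the ends on chromosome II and had −0.26 in S phase and 0.069 in the asynchronous culture.

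The L-asparaginase genes lay low or near the median gene. SPAC186.03 and SPBPB21E7.09 (96.3% identical) had −0.57 and −0.51 in S phase and 0.27 and −0.25 in the asynchronous culture. SPAC977.12 and SPBPB8B6.05c (95.3% identical) had −0.062 and −0.87 in S phase and −0.077 and −0.72 in the asynchronous culture. The aldo-keto reductase genes SPAC750.01 and SPAC977.14c (92.7% identical) were alike in S phase, at 0.35 and 0.39, and had 0.43 and 0.85 in the asynchronous culture. The DUF999 genes SPAC212.04c and SPBCPT2R1.04c (85.8% identical) went opposite ways between the cultures, by −0.92 and 1.11.

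**Figure D4:**
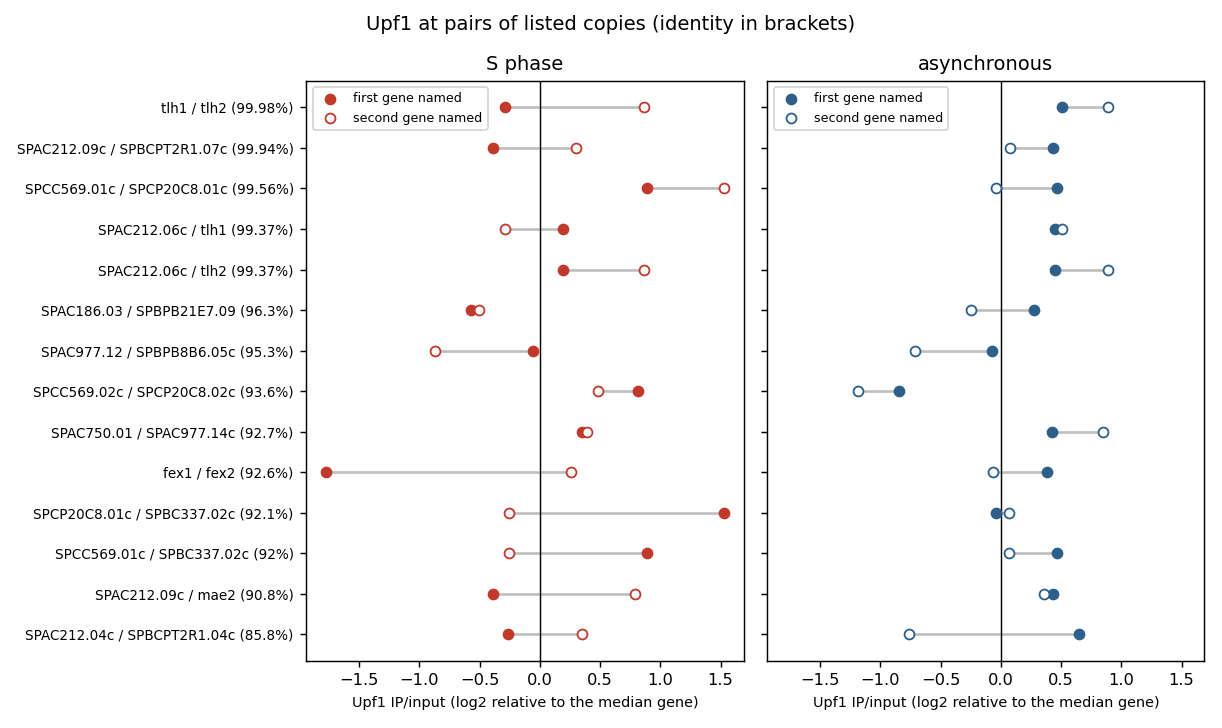
Upf1 IP over input (log2 relative to the median gene) of 14 pairs of listed copies in S phase (left) and in the asynchronous culture (right), with the first gene named filled and the second open, ordered by sequence identity. The gap in S phase is 1.16 for tlh1 and tlh2 and 2.03 for fex1 and fex2, and 0.064 for the L-asparaginase genes SPAC186.03 and SPBPB21E7.09.

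Whether the subtelomeric genes carried Upf1 in proportion to their transcription was examined with the authors' values for RNA polymerase II with Ser5 phosphorylation (Pol II) and for RNA, which come from other cultures and have neither an S-phase value nor an error. The median Pol II ratio of the 44 genes was −0.72 relative to the median gene, and 16 of them (36.4%, against 3.62% of all listed genes) lay at least 2-fold below it. Their median RNA level was 2.65 on the scale ln(FPKM + 1), against 3.74 for all listed genes, and 33 of the 44 were under that median. The genes of chromosome III differed from the rest, with a median Pol II ratio of −0.034 over 13 genes, against −0.98 over the other 31. The S-phase Upf1 medians of the same groups were 0.70 and 0.020, so the raised S-phase median was not that of the group with low Pol II.

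The 16 genes of low Pol II had a median Upf1 value of 0.097 in S phase and 0.0018 in the asynchronous culture. The other 161 listed genes past the same 2-fold limit had −0.39 in S phase and −0.27 in the asynchronous culture. The Pol II ratios themselves were not matched, with a median of −1.65 over the 16 and −1.26 over the 161. In S phase 3 of the 16 were above 1.5-fold (18.8%, against 2.82% of all 177 genes of low Pol II), namely ftm4, aes1 and SPCP20C8.03. In the asynchronous culture it was 1 of the 16, SPAC212.04c (6.25%, against 3.95%). For aes1 the Pol II ratio was −2.33 and for ftm4 it was −1.88, while their Upf1 values in S phase were 0.95 and 0.98. Of these 16 genes 7 exceed 5% of repeated words, and the Pol II arrays had inputs of their own.

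The highest Pol II ratio in the whole table belonged to fex1, with a deposited ratio of 287, against 8.43 for the next gene, and its RNA level was 3.34. A single value so far from all others, on a gene whose copy fex2 stood at −0.45, is given as the authors listed it.

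**Figure D5:**
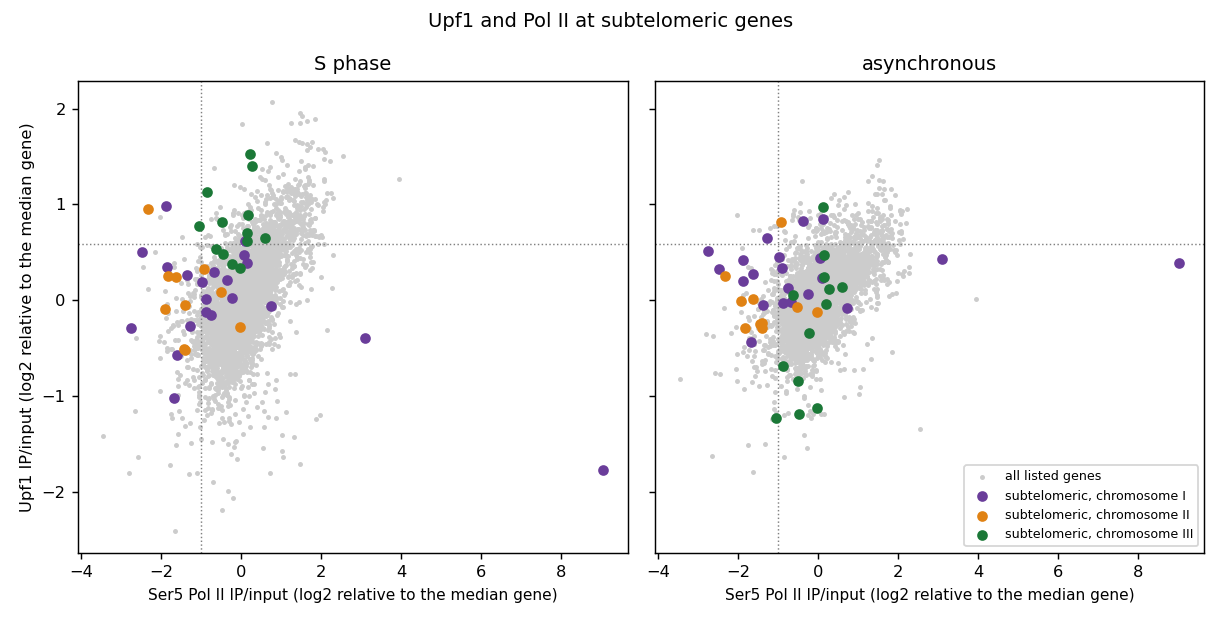
Upf1 IP over input in S phase (left) and in the asynchronous culture (right) against the authors' Ser5 Pol II ratio, both log2 relative to the median gene, for all 4888 listed genes (grey) and the 44 subtelomeric genes (coloured by chromosome). The horizontal dotted line marks 1.5-fold above and the vertical one 2-fold below the median gene. In S phase 3 subtelomeric genes lie above the one and left of the other, and fex1 lies apart at a Pol II value of 9.04.

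The genes for proteins that act at telomeres and in heterochromatin were looked at as a list of 20, all of which were listed. These included the telomere binding and capping genes taz1, rap1, pot1, tpz1, poz1, ccq1, rif1, stn1 and ten1, the telomerase genes trt1 and est1, and the silencing genes swi6, clr4, clr3, chp1, tas3, ago1 and dcr1, with bqt4 and sgo2. They lie outside the subtelomeres. Their median was −0.25 in S phase and −0.055 in the asynchronous culture, and none of them was above 1.5-fold in either culture. In S phase 4 of the 20 lay below, against 7.96% of all listed genes, namely ten1 (−1.66), stn1 (−0.91), trt1 (−0.89) and est1 (−0.85). In the asynchronous culture 2 lay below, against 3.36%, trt1 (−0.76) and est1 (−0.61). Between the cultures 0 were higher in S phase (against 3.78% of all listed genes) and 2 were lower (against 4.03%), ten1 by −1.65 and poz1 by −0.94, and the median difference was −0.13 with 15 of 20 genes under 0. The values of swi6, which encodes the heterochromatin protein HP1 of S. pombe, were −0.41 in S phase and −0.063 in the asynchronous culture.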

How the data were processed

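Upf1-HA ChIP-chip was available for 1 S-phase and 1 asynchronous culture with 2 inputs. Per the study's methods the authors summarised Affymetrix probe intensities to 1 signal per gene and divided each IP by the mean of both inputs. The deposited Upf1 and Pol II values are these linear ratios of IP over input. Of 2 IP arrays per culture the authors used 1, as they found the other of each pair to be low in quality. RNA was deposited as a natural log of FPKM + 1 from published libraries. The base was settled from the values, since FPKM times length in kb summed to 917913 with that base and to 177585 with base 2.

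Ratios were put on a log2 scale, with the median of 4888 genes in each column subtracted. The log2 ratio between the cultures was centred likewise, and the inputs cancel in it. Names, gene order, length, GC content and sequences came from RefSeq (ASM294v3), which matched 4850 identifiers. The build behind the files is not given in the sources used here, so no coordinates are printed. Copies were searched with BLAST 2.17.0 (at least 80% identity over 50% of the gene; near-identical, 90%). Repeats were counted with words of 25 bases. Python 3.11.15, pandas 2.3.3 and statsmodels 0.14.6 were used, and the centring and the 1.5-fold threshold were tested on simulated data. The unchanged genes in that simulation spread less than the genes of these data, so it does not show how the threshold performs here. The genes and lists were chosen with earlier results of these data known. Genes were named if they were among the outermost 4 of an end, passed 1.5-fold between cultures or in both, were highest or lowest at an end, or had a copy at another end, and the other members were added to account for all 44. The 4 arrays limit the precision, and no depth or probe counts are given. Genes are not replicates. Alternatives were another centring, no centring, scaling of the S-phase spread, removal of the GC trend, a 2-fold threshold, and leaving out copies, repeated, short or weakly expressed genes.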

Additional observations from a re-analysis of the deposited data

Results flagged for a closer look

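The outermost 4 subtelomeric genes differed between cultures in opposite directions at different chromosome ends. At the left end of chromosome I all 4 were on the lower side in S phase relative to the median gene, with a median difference of −0.82. All 4 at the left end of chromosome III and all 4 at the right end were on the higher side in S phase, with medians of 1.61 and 1.47, although SPCC569.01c at the right end, at 0.41, did not pass 1.5-fold. With 1 array per culture the difference between the ends was not tested. All 4 genes at the left end of chromosome I exceed 5% of repeated words, as do 3 of 4 at each end of chromosome III.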

How the results depend on the processing

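With 1 array per culture no replicate could be left out, and the number of arrays limits every value. No paired analysis was possible because each culture had 1 IP array and no replicate number was shared. A value was taken as moved when it changed by more than 0.24, which is the SD of the difference over all genes divided by the square root of 2, and a count when it changed by over 1.5 times. Of 174 recomputed values, 114 stayed within these limits. Without centring, the median gene itself has a difference of −1.98, which shifts every gene alike. The median differences were then −2.38 and −1.81 at the left and right end of chromosome I, −2.23 and −1.79 for chromosome II, and −0.42 and −1.50 for chromosome III, with 0 genes higher and 38 lower. The sign then turned for ftm4 (−1.21), aes1 (−1.30), SPCP20C8.01c (−0.42), SPCP20C8.02c (−0.32), SPCC1884.01 (−0.53), nic1 (−1.27), SPCC569.02c (−0.33), SPCC569.03 (−0.18) and SPCC569.05c (−0.70). With the outermost 4 genes of each end alone, the left end of chromosome I had −0.82 and the right end of chromosome III 1.47. When genes in the lowest 20% by RNA level were left out, 20 genes remained, 5 were higher and 2 lower, and the medians were −0.053 and −0.080 for the left and right end of chromosome I, 0.096 for the left end of chromosome II and 1.14 for the left end of chromosome III. Without near-identical copies, 29 genes remained. Then 5 were higher and 3 lower, 7 were above and 1 below in S phase, and 2 were below in the asynchronous culture. Without genes of over 5% repeated words, an alternative chosen after seeing the data, 27 remained. Of these 4 were higher and 2 lower, 6 were above and 1 below in S phase, 3 were above and 1 below in the asynchronous culture, and the left end of chromosome III had 1.08. At 2-fold, 1 gene was lower in S phase, 3 were above in S phase, and 0 were above and 3 below in the asynchronous culture. Centring on the lowest 25% by Pol II raised all values by 0.26 in S phase and 0.19 in the asynchronous culture. It gave a median of 0.54 in S phase, with 21 genes above in S phase and 11 in the asynchronous culture. Removal of the GC trend raised the count of genes below in S phase from 2 to 5. The causes of these changes were not tested. Scaling of the S-phase ratios to the asynchronous spread and leaving out the shortest 10% of genes moved none of the medians or counts, and neither did adding the other listed genes at the ends, which was also chosen after seeing the data. The scaling did move the differences of 7 single genes, and ftm4 (0.50), aes1 (0.41) and SPAC977.15 (−0.30) then no longer passed 1.5-fold.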

Other observations

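A further 8 listed genes lie among or outside the subtelomeric genes without carrying one of their clone names. At the right end of chromosome II tlh2 was high in both cultures, at 0.87 in S phase and 0.89 in the asynchronous culture. Its share of repeated words is 93.7%. SPBCPT2R1.04c, a relative of the DUF999 genes with a share of 95.8%, had 0.35 in S phase and −0.77 in the asynchronous culture. The non-coding RNA gene nam3, with a share of repeated words of 0%, had 0.71 in S phase and −0.37 in the asynchronous culture, so both of these were higher in S phase, by 1.11 and 1.07.

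On chromosome III the non-coding RNA genes meu3 and meu19 lie between subtelomeric genes. Their shares of repeated words are 64.9% and 64%. Neither gene passed 1.5-fold between the cultures. The values of meu3 were −0.78 in S phase and −0.74 in the asynchronous culture, and those of meu19 were −0.23 and −0.45. Their neighbours SPCC1884.01 and SPCC569.06 differed by 1.45 and 0.38.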
